A study of Mus musculus with 10 samples.

Results

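The MYC, MAX and MXD network is a family of basic helix-loop-helix leucine zipper transcription factors, and 10 of its genes were followed by their symbols through the deposited expression tables. They were Mycn (ENSMUSG00000037169), Myc (ENSMUSG00000022346), Mycl (ENSMUSG00000028654), Max (ENSMUSG00000059436), Mlx (ENSMUSG00000017801), Mxd3 (ENSMUSG00000021485), Mxd4 (ENSMUSG00000037235), Mxi1 (ENSMUSG00000025025), Mnt (ENSMUSG00000000282) and Mga (ENSMUSG00000033943). They are 10 of 13976 genes listed in any of the 3 tables. The GDC-0449 table and the SMB56-shSufu table each list 10 of the 10, and the SMB56 THZ1 table lists 8, without Mxd4 and Mxi1.

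RNA sequencing had been done in 5 groups of 2 libraries, 10 libraries in all. SMB56 is a spontaneous medulloblastoma cell line from Ptch+/- mice that grows as neurospheres, used here at passages 10 to 15, and in SMB56-shSufu a short hairpin RNA targets Sufu, so both lines share the Ptch+/- genotype. SMB56 cells received 0.1 µM THZ1, 1 µM GDC-0449 or DMSO, and SMB56-shSufu cells received 0.1 µM THZ1 or DMSO, for 8 h in each case. THZ1 is a covalent inhibitor of the transcriptional kinase CDK7 that also acts on CDK12 and CDK13, GDC-0449 (vismodegib) inhibits the hedgehog signal transducer SMO, and the series describes its lines as responsive or resistant to SMO inhibition. The model is 1 tumour line and 1 knockdown derivative of it. The labels do not say whether the replicates of a group were separate cultures, so the p-values below measure only library-to-library spread, part or all of which may be technical.

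MYC, MYCN and MYCL each pair with MAX and bind E-box DNA, where the pair activates genes of growth, ribosome assembly and metabolism. MXD proteins (among them MXD3, MXD4 and MXI1) and MNT compete for MAX, bind the same DNA and bring in the SIN3 and HDAC corepressor, while MLX is a second pairing partner used by MXD4, MNT and the MONDO proteins. MGA is a large MAX partner that belongs to a Polycomb complex, PRC1.6. Mycn is known as a hedgehog target in cerebellar granule neuron progenitors, the cells from which hedgehog-driven medulloblastoma arises.

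The promoters of 4 members are printed as examples of genes whose levels moved in opposite directions with THZ1 under TMM scaling (defined below), Mnt and Mycn higher and Mlx and Mxd3 lower. The letters run 5′ to 3′ over the 250 bases before the start, as RefSeq gives them on GRCm38.p6, and capitals mark the E-box CACGTG. Mnt lies at chr11:74830674-74830923 on the + strand and Mlx at chr11:101087040-101087289 on the + strand. Mycn lies at chr12:12941837-12942086 on the - strand and Mxd3 at chr13:55329732-55329981 on the - strand.
Mnt: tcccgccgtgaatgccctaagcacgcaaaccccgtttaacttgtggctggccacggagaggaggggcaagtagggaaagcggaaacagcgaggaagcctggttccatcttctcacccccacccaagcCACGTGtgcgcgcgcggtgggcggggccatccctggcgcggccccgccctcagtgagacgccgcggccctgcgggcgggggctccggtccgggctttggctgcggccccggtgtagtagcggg
Mlx: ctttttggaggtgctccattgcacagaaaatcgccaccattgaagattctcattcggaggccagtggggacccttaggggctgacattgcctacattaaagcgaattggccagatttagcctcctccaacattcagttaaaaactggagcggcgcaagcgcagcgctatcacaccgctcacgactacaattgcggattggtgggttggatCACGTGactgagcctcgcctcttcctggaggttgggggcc
Mycn: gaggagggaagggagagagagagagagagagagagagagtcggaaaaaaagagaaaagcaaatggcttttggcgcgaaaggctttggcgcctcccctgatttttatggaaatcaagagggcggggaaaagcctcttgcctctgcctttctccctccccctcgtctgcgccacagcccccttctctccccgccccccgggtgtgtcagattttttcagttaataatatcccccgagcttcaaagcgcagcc
Mxd3: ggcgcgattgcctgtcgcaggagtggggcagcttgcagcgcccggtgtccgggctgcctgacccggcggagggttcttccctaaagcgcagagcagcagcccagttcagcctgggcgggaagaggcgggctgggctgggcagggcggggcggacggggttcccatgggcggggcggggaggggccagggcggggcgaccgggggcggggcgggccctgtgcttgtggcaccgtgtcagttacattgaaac
The motif search covered 250 bases before and 50 after the start on both strands. RefSeq promoters were matched for 9 members, all but Myc, with 11 promoters among them. CACGTG was found in the promoters of 4 members, at 219 bases before the start in Mxd4, 123 in Mnt, 40 in Mlx and 3 in Max, while 7.15% of all 32851 promoters of that length hold it. The GLI motif GACCACCCA was found in 0 of the 11, against 0.253% of all promoters. A match describes the letters and is not evidence of binding.

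Whole-table facts that bear on the members are as follows. The libraries summed to between 10614268 and 13170421 reads in the SMB56 THZ1 table, between 13131292 and 14986389 in that of GDC-0449 and between 30100041 and 33254885 in that of SMB56-shSufu. Under DMSO the knockdown target Sufu was 2.89-fold lower in SMB56-shSufu, relative to SMB56 (log2 fold change -1.53 ± 0.097 SE, edgeR adjusted p 0.00114, n = 2). Under TMM its level was higher with THZ1 in both lines, in a fit of those 8 libraries. It was 104 and 97.3 CPM against 21.7 and 22.5 with DMSO in SMB56-shSufu. In SMB56 it was 135 and 143 CPM against 66.3 and 62.0 with DMSO. On that scale Sufu in THZ1-treated SMB56-shSufu lay above that of DMSO-treated SMB56, though below that of THZ1-treated SMB56. Its THZ1 effect was larger in SMB56-shSufu (log2 difference 1.07 ± 0.13, edgeR adjusted p 0.00186). In the fit of THZ1 against DMSO in SMB56, Sufu had a log2 fold change of 0.90 under TMM. Myc, at 1.24 there, turned to -0.031 when scaled to mitochondrially encoded genes, so the Sufu rise in SMB56 also rests on the scaling. Gli1, the hedgehog target that checks the treatments, had a log2 fold change of -3.76 ± 0.065 with GDC-0449 and of -2.48 ± 0.062 with THZ1 in SMB56, and of -1.28 ± 0.16 with THZ1 in SMB56-shSufu. The SMB56-shSufu libraries varied more, with a biological coefficient of variation of 13.3% in the fit of that table, against 3.02% in the SMB56 THZ1 fit and 2.27% in the GDC-0449 fit. Granule neuron progenitor markers were listed for 4 of 6 in the SMB56 tables, without Zic2 and Pax6, and for 5 of 6 in the SMB56-shSufu table, without Pax6. Their summed level moved with treatment, at 3191 to 3283 CPM with THZ1 against 2483 to 2488 with DMSO in SMB56, 2808 to 2809 CPM with GDC-0449 against 2184 to 2187 with DMSO, and 2766 to 2782 CPM with THZ1 against 1379 to 1400.3 with DMSO in SMB56-shSufu. Astroglial markers (2 of 5 in the SMB56 THZ1 table and 1 of 5 in the others) summed to 19.1 to 19.6 CPM with THZ1 against 53.8 to 54.7 with DMSO in SMB56, 47.8 to 54.3 with GDC-0449 against 46.1 to 46.9 with DMSO, and 18.4 to 19.8 with THZ1 against 40.3 to 48.9 with DMSO in SMB56-shSufu. Oligodendrocyte lineage markers (4 of 6, 3 of 6 and 3 of 6 listed) summed to 18.1 to 20.2 CPM with THZ1 against 31.8 to 35.5 with DMSO in SMB56, 158 to 162 with GDC-0449 against 211 to 220.4 with DMSO, and 584 to 608 with THZ1 against 386 to 426 with DMSO in SMB56-shSufu. Of 5 microglial and 4 endothelial markers, 0 were listed in any table, and of 4 fibroblast markers 1 was listed, in the SMB56-shSufu table at 13.7 to 14.0 CPM with THZ1 against 20.8 to 22.5 with DMSO. These marker sums were scaled to each table's own total count, without TMM, and the genes summed were not the same in every table. For the oligodendrocyte lineage the SMB56 THZ1 table lacked Olig1 and Olig2, and the other tables lacked Olig2, Sox10 and Mog. The same SMB56 DMSO libraries thus gave 31.8 to 35.5 CPM in the THZ1 table and 211 to 220.4 in that of GDC-0449. Marker sums can be compared only within a table, not between SMB56 and SMB56-shSufu. The part of these markers in the results was not tested. In bulk RNA, fewer cells of a type and less RNA per cell cannot be told apart.

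Mycn had the highest level per transcript length among the listed members in every group. The authors' FPKM of Mycn averaged 106 ± 5.01 with THZ1, 58.9 ± 5.69 with GDC-0449 and 91.5 ± 1.06 with DMSO in SMB56 (SD, n = 2). It averaged 97.3 ± 8.92 with THZ1 and 75.4 ± 18.1 with DMSO in SMB56-shSufu. In SMB56 under DMSO the order below Mycn was Mga at 29.4 FPKM, Max at 28.7, Mxd3 at 27.0, Mxd4 at 24.5, Mycl at 20.4, Mlx at 15.7, Myc at 11.2, Mnt at 9.03 and Mxi1 at 7.89. The libraries of neighbouring genes did not overlap anywhere in that order.

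Treated groups had other orders. With THZ1 in SMB56, Max came second at 18.8 FPKM, then Myc at 18.2, Mga at 14.6, Mnt at 10.8, Mycl at 7.26, Mlx at 4.74 and Mxd3 at 4.66, where Max and Myc overlapped and so did Mlx and Mxd3. With GDC-0449 in SMB56, Mxd4 came second at 33.4 FPKM and Mxd3 next at 30.02, followed by Max at 27.3, Mga at 25.4 and Mycl at 24.7, whose libraries overlapped their neighbours. Mlx at 17.9, Myc at 13.01, Mnt at 8.61 and Mxi1 at 8.27 closed that order, with Mnt and Mxi1 overlapping.

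In SMB56-shSufu the second member was Myc with THZ1, at 52.9 ± 0.030 FPKM, and Max with DMSO, at 39.5 ± 9.51 FPKM (SD, n = 2). With THZ1 the order went on with Max at 24.8, Mga at 24.5, Mnt at 8.65, Mlx at 7.30, Mxd3 at 5.37, Mxi1 at 5.06, Mxd4 at 4.98 and Mycl at 3.10, where Max overlapped Mga and Mxi1 overlapped Mxd4. With DMSO it went on with Mga at 29.1, Myc at 27.5, Mlx at 27.3, Mxd3 at 19.5, Mycl at 8.79, Mxi1 at 7.55, Mnt at 6.26 and Mxd4 at 6.13, where Mga, Myc and Mlx overlapped in that order and Mnt overlapped Mxd4.

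**Figure D1:**
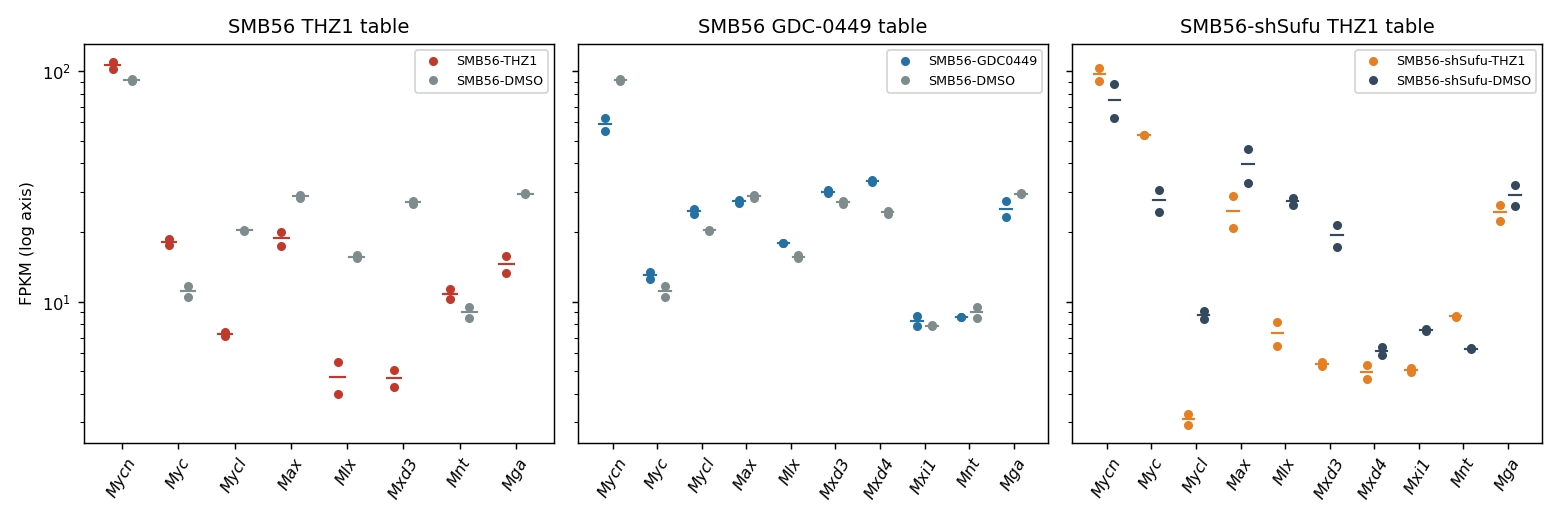
FPKM of each network gene on a log axis, 1 panel per deposited table, with a point per library and a line at the mean of 2 libraries. Mycn stands above the other members in every group, and Mxd3 and Mlx are the members furthest below their DMSO level with THZ1 in SMB56.

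Within the MYC paralogs, the share held by Mycn differed between groups. Of the summed FPKM of Mycn, Myc and Mycl, Mycn made up 80.5% and 80.8% with THZ1, 62.5% and 59.3% with GDC-0449 and 74.5% and 74.2% with DMSO in SMB56. In SMB56-shSufu it made up 64.9% and 62.0% with THZ1 and 68.9% and 65.6% with DMSO. Myc itself held 33.1% and 36.0% with THZ1 and 23.9% and 25.6% with DMSO in SMB56-shSufu, above the 13.9% and 13.8% with THZ1, 12.4% and 14.6% with GDC-0449 and 8.66% and 9.46% with DMSO in SMB56. The share of Mycl was 5.62% and 5.44% with THZ1, 25.1% and 26.1% with GDC-0449 and 16.8% and 16.4% with DMSO in SMB56, and 2.05% and 1.99% with THZ1 against 7.14% and 8.86% with DMSO in SMB56-shSufu. No treated group overlapped its DMSO group in these shares, though 2 libraries can lie apart from 2 others through library spread alone. For the share of Mycn in SMB56-shSufu the gap between the groups was smaller than that between the libraries of either.

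With GDC-0449, Mycn was lower and Mxd4 higher in SMB56, and the other members differed less from DMSO. Of 10 members tested, 4 were called higher and 1 lower by edgeR at an adjusted p under 0.05, and 5 were not called. Over all genes tested in that table, 36.3% were called, 17.5% higher and 18.8% lower. The median log2 fold change was 0.097 over the members and -0.0088 over all genes.

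Mycn, the MYC paralog of the neural and hedgehog lineages, stood at 228 and 215 CPM (TMM-normalized read counts scaled to a common library size) with GDC-0449 and at 354 and 352 CPM with DMSO. Both GDC-0449 libraries lay below both DMSO libraries. The fall was 1.596-fold (log2 fold change -0.67 ± 0.035 SE, edgeR adjusted p 4.33e-16, n = 2), and 1.02% of genes had a lower fold change than Mycn or the same one. Mycn stayed called lower under every alternative run on this comparison. Mycl, the paralog first found in lung cancer, stood at 119.8 and 115 CPM with GDC-0449 and at 100.5 and 100.8 CPM with DMSO, a rise of 1.17-fold (0.22 ± 0.044, edgeR adjusted p 0.000163) that was not called under mitochondrial scaling (0.11), in the fit of all 10 libraries (0.23) or on FPKM (0.26). Myc stood at 44.6 and 50.2 CPM with GDC-0449 and at 40.3 and 40.1 CPM with DMSO (0.24 ± 0.068, edgeR adjusted p 0.00707). Without GDC-0449 replicate 2 the fold change of Myc was 0.15 and not called, so its call rests on that library. DESeq2 did not call it (adjusted p 0.122). Myc was also not called under mitochondrial scaling, in the fit of all 10 libraries or on FPKM.

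Mxd4, an MXD repressor linked to differentiation, stood at 168 and 168 CPM with GDC-0449 and at 128 and 126 CPM with DMSO. The groups lay apart, and the rise was 1.32-fold (log2 fold change 0.40 ± 0.039, edgeR adjusted p 9.80e-10). It too was called under every alternative that holds the gene. Mlx, the second dimer partner, had 44.1 and 46.8 CPM with GDC-0449 and 38.5 and 38.5 CPM with DMSO (0.24 ± 0.067, edgeR adjusted p 0.00577). It was not called without GDC-0449 replicate 2 (0.19) or by DESeq2 (adjusted p 0.120), nor under mitochondrial scaling, in the fit of all 10 libraries or on FPKM.

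The other 5 members did not pass the test with GDC-0449. Max, the obligate partner of the MYC proteins, had 77.9 and 78.6 CPM with GDC-0449 and 81.6 and 80.0 CPM with DMSO (log2 fold change -0.047, 95% interval -0.15 to 0.054). Mxd3, an MXD member known from proliferating progenitors, had 61.6 and 63.4 CPM with GDC-0449 and 59.9 and 56.9 CPM with DMSO (0.097, interval -0.021 to 0.21). Mxi1 had 57.0 and 53.5 CPM with GDC-0449 and 50.9 and 52.5 CPM with DMSO (0.098, interval -0.027 to 0.22). For each of these genes the difference was small against the estimated spread. Mnt, the most widely expressed of the MAX-binding repressors, had 56.6 and 60.8 CPM with GDC-0449 and 65.5 and 59.96 CPM with DMSO, which overlap (-0.096, interval -0.22 to 0.027). Mga had 291 and 294 CPM with GDC-0449, inside the 286 and 297 CPM of DMSO (0.0052, interval -0.063 to 0.074).

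With THZ1 the MYC paralogs moved in different directions in SMB56, and Mxd3 fell most among the members listed. On the TMM scale Myc, Mnt and Mycn were higher and Mxd3, Mycl, Mlx, Mga and Max lower, that is 3 of 8 members higher and 5 lower by edgeR. This table was selected on the outcome, since 9999 of its 10007 genes have an adjusted p-value under 0.05 in the authors' deposited table. Accordingly 99.5% of all genes tested were called, 44.3% higher and 55.2% lower, and the count for the members is no result in itself. The median log2 fold change was -0.18 over the members and -0.31 over all genes.

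Mycn stood at 570.0 and 615 CPM with THZ1 and at 353 and 352 CPM with DMSO, and both THZ1 libraries lay above both DMSO libraries. It was 1.68-fold higher under TMM (log2 fold change 0.75 ± 0.046, edgeR adjusted p 3.32e-12), and -0.52, the opposite direction, when libraries were scaled to the mitochondrially encoded genes. Scaled to ribosomal protein genes, Mycn had 0.066 without a call. Myc stood at 91.5 and 97.4 CPM with THZ1 and at 40.2 and 40.0 CPM with DMSO, again with no overlap. Its rise was 2.35-fold under TMM (1.24 ± 0.064, edgeR adjusted p 1.79e-13) and -0.031, without a call, under mitochondrial scaling. Mycl moved the other way, at 50.01 and 54.7 CPM with THZ1 and 100.3 and 100.5 CPM with DMSO. It fell 1.92-fold (-0.94 ± 0.062, edgeR adjusted p 8.32e-12), and was called lower under every alternative.

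Max had 71.0 and 73.0 CPM with THZ1 and 81.5 and 79.8 CPM with DMSO. Its log2 fold change was -0.16 ± 0.058 under TMM (edgeR adjusted p 0.0115), 0.14 under RLE scaling (edgeR adjusted p 0.0272) and 0.14 in DESeq2 (adjusted p 0.169), so its direction depended on the scaling. Without SMB56 DMSO replicate 1 the TMM value for Max was -0.16 (edgeR adjusted p 0.0564), and without THZ1 replicate 1 it was -0.14 (edgeR adjusted p 0.0647). Mlx had 26.3 and 21.8 CPM with THZ1 and 38.4 and 38.4 CPM with DMSO. The THZ1 libraries lay below DMSO, and the fall of 1.59-fold (-0.67 ± 0.089, edgeR adjusted p 4.37e-07) kept its call under every alternative.

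Mxd3 stood at 18.6 and 20.5 CPM with THZ1 and at 59.7 and 56.8 CPM with DMSO. This was a 2.99-fold fall (log2 fold change -1.58 ± 0.082, edgeR adjusted p 1.77e-13) with wide separation of the groups, and it was called lower under every alternative. Among all genes tested, 10.6% had a fold change as low as that of Mxd3 or lower, so a fall of this size was not rare in this table. Mnt stood at 103 and 114 CPM with THZ1 and at 65.4 and 59.8 CPM with DMSO. Its 1.73-fold rise under TMM (0.79 ± 0.064, edgeR adjusted p 2.26e-10) became -0.47 under mitochondrial scaling, and was not called at 0.11 under ribosomal protein gene scaling or at 0.24 on FPKM. Mga had 254 and 252 CPM with THZ1 and 286 and 296 CPM with DMSO (-0.20 ± 0.043 under TMM, edgeR adjusted p 0.000142). Its sign also turned, to 0.11 under RLE scaling (edgeR adjusted p 0.0256) and 0.098 in DESeq2 (adjusted p 0.126).

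In SMB56-shSufu, THZ1 again gave higher Myc, Mnt and Mycn and lower Mlx, Mxd3 and Mycl. Of 10 members 4 were called higher, 3 lower and 3 not at all by edgeR, where 61.9% of all genes tested were called, 29.5% higher and 32.3% lower. The median log2 fold change was 0.18 over the members and -0.043 over all genes.

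Mycn had 507 and 480.1 CPM with THZ1 and 266 and 212 CPM with DMSO in SMB56-shSufu. The groups lay apart and the TMM rise was 2.07-fold (log2 fold change 1.05 ± 0.16, edgeR adjusted p 0.000120), with a value of -0.31 under mitochondrial scaling and of 0.38 without a call on FPKM. Myc had 287 and 316 CPM with THZ1 and 106 and 95.6 CPM with DMSO. Its rise of 2.98-fold (1.58 ± 0.15, edgeR adjusted p 2.68e-06) was the largest of the members in this line, and 0.24 without a call under mitochondrial scaling. Mycl had 21.2 and 19.7 CPM with THZ1 and 38.1 and 37.7 CPM with DMSO, a 1.85-fold fall (-0.89 ± 0.15, edgeR adjusted p 0.000267).

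Among the partners in SMB56-shSufu, Mlx had 20.0 and 20.6 CPM with THZ1 and 46.9 and 44.0 CPM with DMSO. It fell 2.24-fold (log2 fold change -1.16 ± 0.15, edgeR adjusted p 3.12e-05). Max had 76.7 and 69.5 CPM with THZ1 and 87.3 and 79.4 CPM with DMSO, and did not pass the test (-0.19, 95% interval -0.49 to 0.11). It was called lower under library size scaling, on FPKM and under mitochondrial scaling (-1.53).

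Of the repressors in SMB56-shSufu, Mxd3 had 17.3 and 17.9 CPM with THZ1 and 40.0 and 35.2 CPM with DMSO, a 2.14-fold fall (log2 fold change -1.10 ± 0.16, edgeR adjusted p 6.80e-05). Mnt had 115 and 119.8 CPM with THZ1 and 43.4 and 47.9 CPM with DMSO. Its 2.57-fold rise (1.36 ± 0.14, edgeR adjusted p 4.76e-06) was 0.048 without a call under mitochondrial scaling. Mga had 294 and 342 CPM with THZ1 and 199 and 241 CPM with DMSO. It was called higher under TMM (0.53 ± 0.16, edgeR adjusted p 0.0116), was -0.78 under mitochondrial scaling and -0.24 on FPKM, and was not called without SMB56-shSufu THZ1 replicate 2 (0.42, edgeR adjusted p 0.129). Mxd4 had 30.7 and 28.4 CPM with THZ1 and 22.4 and 27.4 CPM with DMSO (0.25, 95% interval -0.11 to 0.60), not called except when SMB56-shSufu DMSO replicate 2 was left out (0.40, edgeR adjusted p 0.0360) and under mitochondrial scaling, where it was -1.06. Mxi1 had 36.3 and 37.3 CPM with THZ1 and 32.7 and 35.3 CPM with DMSO (0.12, interval -0.21 to 0.44).

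**Figure D2:**
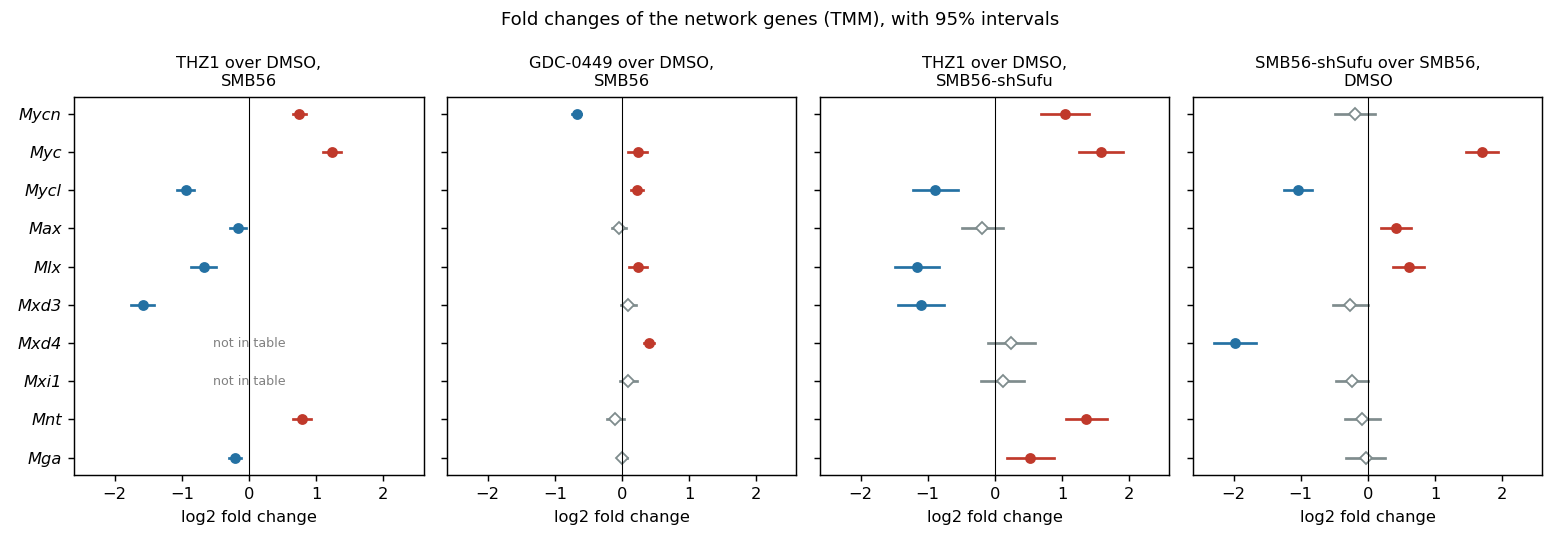
Log2 fold change (TMM) of each network gene with its 95% interval, 1 panel per comparison, with the treated group or SMB56-shSufu over its control. Filled circles passed an edgeR adjusted p under 0.05 (red higher, blue lower) and open diamonds did not; Mxd3, Mlx and Mycl lie below 0 and Myc, Mycn and Mnt above it with THZ1 in both lines, under TMM.

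A direct test of the line difference called 2 of 8 members, 1 with a positive and 1 with a negative difference, where 18.3% of all 8204 genes in both THZ1 tables were called, 10.4% positive and 7.89% negative. It compared the THZ1 effect in SMB56-shSufu with that in SMB56 in 1 edgeR fit of 8 libraries. The 8204 genes are limited to the SMB56 THZ1 table, which was selected on the outcome, so the shares called are not those of all expressed genes. Mlx fell more in SMB56-shSufu. In that fit it had 24.9 and 25.8 CPM with THZ1 against 54.8 and 52.0 with DMSO in SMB56-shSufu, and 27.9 and 23.1 CPM with THZ1 against 35.2 and 35.1 with DMSO in SMB56. The log2 difference for Mlx was -0.62 ± 0.16 (edgeR adjusted p 0.0270). With THZ1 the libraries of both lines overlapped, and with DMSO those of SMB56-shSufu were higher.

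Mga had the opposite difference. It had 366 and 427 CPM with THZ1 against 233 and 285 with DMSO in SMB56-shSufu, and 270.0 and 268 CPM with THZ1 against 262 and 270.3 with DMSO in SMB56. The log2 difference was 0.60 ± 0.16 (edgeR adjusted p 0.0292). Under RLE scaling the Mga call was lost, and under mitochondrial scaling both calls were. Neither call was stable to leaving out a library. Mlx had an edgeR adjusted p of 0.0554 and 0.0640 without SMB56-shSufu THZ1 replicate 1 and 2, 0.103 and 0.105 without SMB56 DMSO replicate 1 and 2, and 0.151 without SMB56 THZ1 replicate 1. Mga had 0.100 without SMB56-shSufu THZ1 replicate 2, 0.114 and 0.142 without SMB56 DMSO replicate 1 and 2, and 0.118 and 0.114 without SMB56 THZ1 replicate 1 and 2.

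The other 6 members were not called in the test of the line difference. Mnt came nearest, with a log2 difference of 0.44 (95% interval 0.13 to 0.75, edgeR adjusted p 0.0522). It was called under library size and ribosomal protein gene scaling, with a replicate block and in the fit of all 10 libraries. Without SMB56-shSufu DMSO replicate 1 the Mnt difference was 0.36, and without its replicate 2 it was 0.49. Mxd3 had 0.35 (interval -0.00077 to 0.71), Myc 0.21 (interval -0.084 to 0.51) and Mycn 0.17 (interval -0.18 to 0.51). Without SMB56-shSufu DMSO replicate 1, Mxd3 (0.44, edgeR adjusted p 0.0374) and Mycn (0.33, edgeR adjusted p 0.0399) were called. Mycl had -0.078 (interval -0.38 to 0.22) and Max -0.16 (interval -0.44 to 0.13). Of all genes, 857 had a positive and 647 a negative difference under TMM, 624 and 917 under RLE, 77 and 35 under mitochondrial scaling and 4444 and 39 under ribosomal protein gene scaling, where the Mlx difference was 0.032. Whether the line, the table it came in or its sequencing depth goes with these differences cannot be told apart.

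Under DMSO the lines differed in Myc, Mycl and Mxd4. Of 10 members tested, 3 were higher and 2 lower in SMB56-shSufu than in SMB56 by edgeR, where 40.7% of all genes tested were called, 20.7% higher and 20% lower. Myc had 127 and 115 CPM in SMB56-shSufu and 37.4 and 37.1 CPM in SMB56. This was a 3.25-fold difference (log2 fold change 1.70 ± 0.095, edgeR adjusted p 0.000987), without a call but still positive under mitochondrial scaling (0.48, edgeR adjusted p 0.125). Mycl had 45.5 and 45.5 CPM in SMB56-shSufu and 93.4 and 93.4 CPM in SMB56, a 2.05-fold lower level (-1.04 ± 0.084, edgeR adjusted p 0.00167). Mycn had 318 and 256 CPM in SMB56-shSufu and 329 and 327 CPM in SMB56 and was not called (-0.19, 95% interval -0.49 to 0.11). Mycn was called lower when SMB56-shSufu DMSO replicate 1 was left out (-0.37, edgeR adjusted p 4.08e-20), a fit whose estimated spread comes from the SMB56 libraries alone.

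Mxd4 had 26.8 and 33.1 CPM in SMB56-shSufu and 119 and 117 CPM in SMB56. It was 3.94-fold lower (log2 fold change -1.98 ± 0.13, edgeR adjusted p 0.00114), and 0.571% of genes tested had a fold change as low or lower. Mlx had 56.1 and 53.1 CPM in SMB56-shSufu and 35.8 and 35.7 CPM in SMB56 (0.61 ± 0.093, edgeR adjusted p 0.00612). Its call was lost without either SMB56 DMSO library, though the fold change stayed at 0.61, and it was -0.61 under mitochondrial scaling. Max had 104 and 95.9 CPM in SMB56-shSufu and 75.9 and 74.1 CPM in SMB56 (0.42 ± 0.089, edgeR adjusted p 0.0161). Max lost its call in the same way, at 0.43 without SMB56 DMSO replicate 1 and 0.40 without replicate 2. Max was also not called under ribosomal protein gene scaling, and was -0.80 under mitochondrial scaling. Fits without an SMB56 DMSO library take their estimated spread from the SMB56-shSufu libraries alone. A call lost in such a fit thus does not show that it rests on that library.

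Mxd3, Mxi1, Mnt and Mga were not called between the lines under DMSO. Mxd3 had 47.8 and 42.5 CPM in SMB56-shSufu and 55.7 and 52.8 CPM in SMB56 (log2 fold change -0.26, 95% interval -0.52 to -0.0050). Mxi1 had 39.1 and 42.6 CPM in SMB56-shSufu and 47.3 and 48.6 CPM in SMB56 (-0.23, interval -0.47 to 0.0089). For both genes the lines did not overlap, and both were called lower when either SMB56-shSufu DMSO library was left out, Mxd3 at -0.36 (without replicate 1) and -0.18 (without replicate 2) and Mxi1 at -0.18 and -0.30 in that order. Mnt had 51.9 and 57.8 CPM in SMB56-shSufu, overlapping 60.9 and 55.6 CPM in SMB56 (-0.085, interval -0.35 to 0.18). Mga had 238 and 291 CPM in SMB56-shSufu, either side of the 266 and 275 CPM in SMB56 (-0.032, interval -0.32 to 0.26). Leaving out SMB56-shSufu DMSO replicate 2 called Mnt (-0.17) and Mga (-0.19) lower, and leaving out replicate 1 called Mga higher (0.094). All these fits without an SMB56-shSufu DMSO library, for Mxd3 and Mxi1 too, take their estimated spread from the SMB56 libraries alone. With every library kept, Mxd3 and Mxi1 were also called lower under library size, ribosomal protein gene and mitochondrial scaling. Mxd3 was called lower in the fit of all 10 libraries as well. Mitochondrial scaling also called Mnt and Mga lower. Over all genes 2211 were higher and 2131 lower in SMB56-shSufu under TMM, 1739 and 2641 under library size, 1368 and 3172 under ribosomal protein gene scaling and 49 and 9340 under mitochondrial scaling. Here too the line and its table cannot be told apart.

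Under TMM, THZ1 and GDC-0449 were opposite for Mycn in SMB56, each against the same DMSO libraries. Under mitochondrial scaling Mycn was lower with THZ1 too (-0.52), the same direction as with GDC-0449. Set directly against GDC-0449 in an edgeR fit of 6 libraries and 7417 genes, Mycn had 711 and 767 CPM with THZ1 and 237 and 224 CPM with GDC-0449. This was a 3.21-fold difference (log2 fold change 1.68 ± 0.045, edgeR adjusted p 6.52e-21), and it kept its sign and call under every alternative, mitochondrial scaling included (0.28, edgeR adjusted p 0.0161). In all 4 members were higher and 3 lower with THZ1 than with GDC-0449, of 8 tested, where 90.3% of all genes tested were called, 39.5% higher and 50.8% lower. The 7417 genes are limited to the SMB56 THZ1 table, which was selected on the outcome, so these shares are not those of all expressed genes.

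Mxd3 had 23.1 and 25.6 CPM with THZ1 and 64.1 and 65.9 CPM with GDC-0449 in that fit (log2 fold change -1.42 ± 0.080, edgeR adjusted p 1.58e-14). Mycl had 62.4 and 68.2 CPM with THZ1 and 124.7 and 119.6 CPM with GDC-0449 (-0.91 ± 0.058, edgeR adjusted p 2.40e-13), and Mlx had 32.8 and 27.1 CPM with THZ1 and 45.9 and 48.7 CPM with GDC-0449 (-0.65 ± 0.086, edgeR adjusted p 1.47e-07). All 3 lay below GDC-0449 in both libraries. Myc was higher with THZ1 under TMM, at 114 and 121 CPM against 46.5 and 52.2 with GDC-0449 (1.26 ± 0.064, edgeR adjusted p 2.50e-15), but -0.16 under mitochondrial scaling. Mnt was higher likewise, at 128 and 142 CPM against 58.9 and 63.3 (1.15 ± 0.064, edgeR adjusted p 1.16e-14), and -0.26 under mitochondrial scaling. Max (0.14 ± 0.056, edgeR adjusted p 0.0214) lost its call without THZ1 replicate 2 (0.12, edgeR adjusted p 0.0941), without GDC-0449 replicate 1 (0.14, edgeR adjusted p 0.0680) and without GDC-0449 replicate 2 (0.15, edgeR adjusted p 0.0553), and Mga was not called (0.052, 95% interval -0.031 to 0.13). Max and Mga turned negative under library size, ribosomal protein gene and mitochondrial scaling. Over all genes 2932 were higher and 3767 lower with THZ1 than with GDC-0449 under TMM, 2090 and 4853 under library size, 1103 and 5373 under ribosomal protein gene scaling and 357 and 6360 under mitochondrial scaling. The compounds were given at different doses, 0.1 µM THZ1 and 1 µM GDC-0449.

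No spike-in was used, so a fold change is relative to the other genes. With THZ1 the choice of count scaling moved all of them together, while FPKM moved them by unequal amounts. The median log2 fold change over all genes with THZ1 in SMB56 was -0.31 under TMM, -0.0060 under RLE, -0.67 under library size, -0.999 under ribosomal protein gene scaling, -1.58 under mitochondrial scaling and -0.66 on FPKM. The SMB56-shSufu medians with THZ1 were -0.043, -0.012, -0.45, -0.20, -1.37 and -0.58 in the same order. With GDC-0449 it lay between -0.13 and 0.016. The share of mitochondrially encoded counts was 7.55% and 6.55% with THZ1 and 3.75% and 3.74% with DMSO in SMB56, and 13.1% and 13.05% with THZ1 and 5.92% and 8.29% with DMSO in SMB56-shSufu. The split of all calls moved with it: with THZ1 in SMB56 4373 genes were higher and 5440 lower under TMM, 4576 and 4343 under RLE, 3859 and 5512 under library size, 2679 and 5967 under ribosomal protein gene scaling, 1288 and 7289 under mitochondrial scaling and 2539 and 5707 on FPKM.

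In SMB56-shSufu the split with THZ1 was 3511 higher and 3844 lower under TMM, 1956 and 5909 under library size, 2351 and 3965 under ribosomal protein gene scaling, 183 and 9139 under mitochondrial scaling and 1039 and 6624 on FPKM. With GDC-0449 it was 1755 and 1878 under TMM and 485 and 3736 under mitochondrial scaling. Relative to all genes tested under TMM with THZ1 in SMB56, Myc stood at percentile 79.5, Mnt at 69.5, Mycn at 68.2, Max at 54.2, Mga at 53.4, Mlx at 36.4, Mycl at 27.1 and Mxd3 at 10.6 of the fold changes. In SMB56-shSufu with THZ1, Myc stood at percentile 96.2, Mnt at 94.0, Mycn at 88.4, Mga at 73.4, Mxd4 at 62.3, Mxi1 at 56.6, Max at 43.5, Mycl at 18.7, Mxd3 at 13.7 and Mlx at 12.2.

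**Figure D3:**
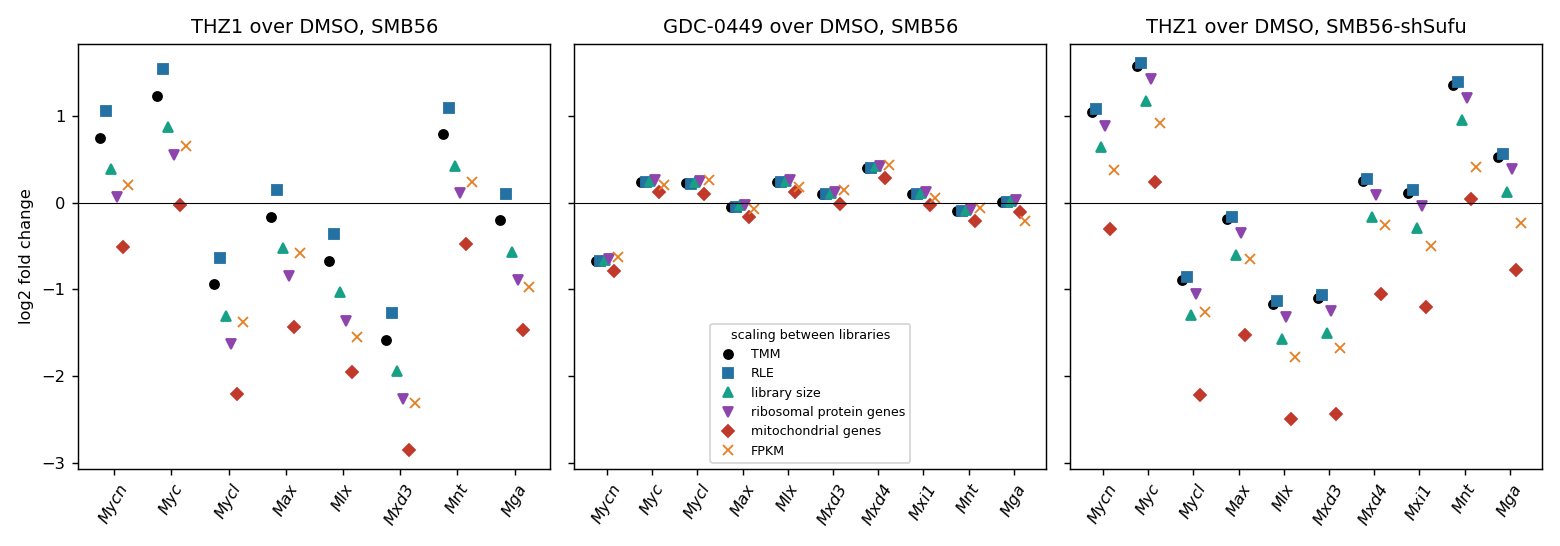
Log2 fold change of each network gene under 6 ways of scaling the libraries, 1 panel per treatment, treated over DMSO. With THZ1 the points of every gene shift together under the scalings of counts, and by unequal amounts on FPKM. Mxd3, Mlx and Mycl stay below 0 in both lines under all 6, while with GDC-0449 Mycn stays below 0 and Mxd4 above it under all 6.

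Count ratios between 2 members within a library do not depend on the scaling. The counts are not per length, so only the change of a ratio between groups is read here. The Mycn to Mxd3 ratio was 30.7 and 30.0 with THZ1, 3.70 and 3.39 with GDC-0449 and 5.91 and 6.19 with DMSO in SMB56. The SMB56-shSufu ratios were 29.3 and 26.9 with THZ1 and 6.65 and 6.03 with DMSO. THZ1 libraries thus lay above DMSO and GDC-0449 libraries below it, and the mean ratio with THZ1 was 5.02 times that with DMSO in SMB56 and 4.43 times in SMB56-shSufu. Part of this change is the fall of Mxd3 itself with THZ1. The mean Mycn to Max ratio with THZ1 was 1.88 times that with DMSO in SMB56 and 2.37 times in SMB56-shSufu. With GDC-0449 it was 0.647 times that with DMSO.

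The Myc to Mxd3 ratio was 4.93 and 4.75 with THZ1, 0.725 and 0.792 with GDC-0449 and 0.672 and 0.704 with DMSO in SMB56, and 16.6 and 17.7 with THZ1 against 2.66 and 2.71 with DMSO in SMB56-shSufu. The Mnt to Mlx ratio was 3.91 and 5.24 with THZ1, 1.28 and 1.30 with GDC-0449 and 1.70 and 1.56 with DMSO in SMB56, and 5.77 and 5.81 with THZ1 against 0.925 and 1.09 with DMSO in SMB56-shSufu. The Myc to Mycn ratio was 0.161 and 0.158 with THZ1, 0.196 and 0.234 with GDC-0449 and 0.114 and 0.114 with DMSO in SMB56. The SMB56-shSufu ratios were 0.565 and 0.657 with THZ1 and 0.400 and 0.450 with DMSO. Treated and DMSO libraries did not overlap in any of these ratios, though groups this small can lie apart through library spread alone. With 2 libraries against 2 no exact permutation test of a single ratio can pass the threshold, so none was run.

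**Figure D4:**
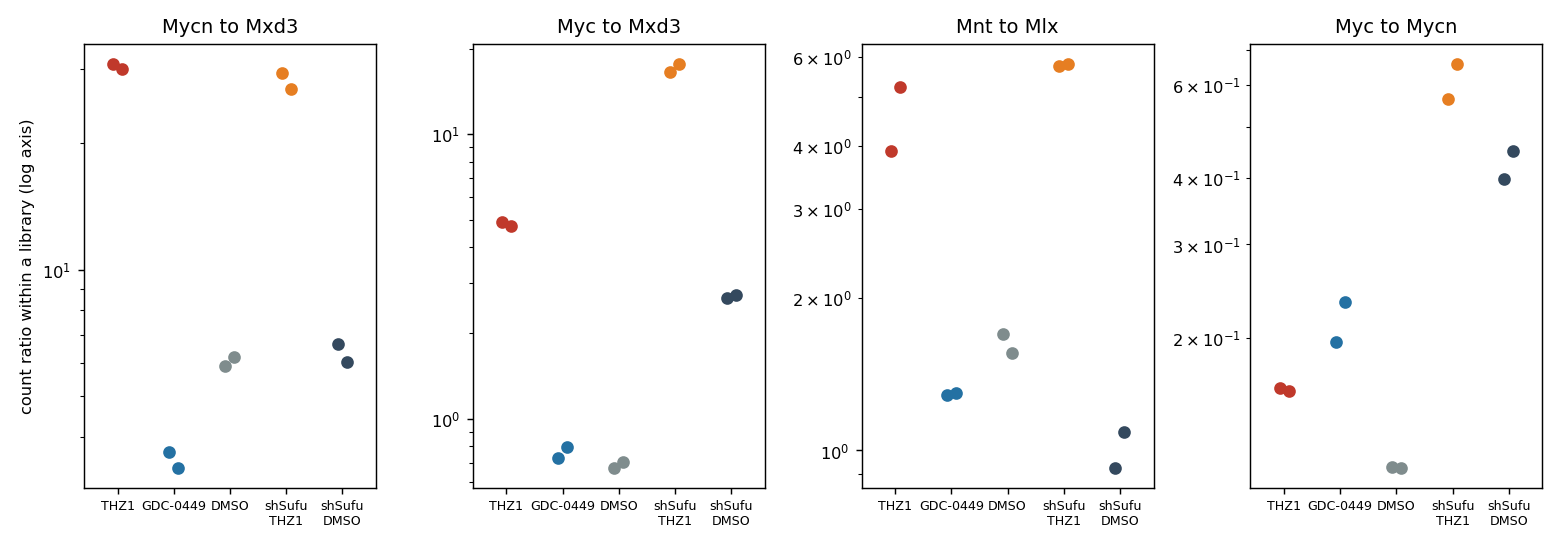
Ratio of raw counts of 2 network genes within each library on a log axis, in the 5 groups, with a point per library. The Mycn to Mxd3 ratio is highest with THZ1 in both lines and lowest with GDC-0449, and the Myc to Mycn ratio is higher in all SMB56-shSufu libraries than in any SMB56 library.

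The authors' deposited tables give the same members by their own DESeq2 fit. In the authors' deposited table for GDC-0449, whose fold changes run DMSO over treated, Mycn had a log2 fold change of 0.67 (adjusted p 1.57e-37), Mxd4 of -0.37 (adjusted p 1.05e-07) and Mycl of -0.19 (adjusted p 0.0468). In the same authors' deposited table Myc and Mlx had -0.19 each, with adjusted p 0.233 and 0.232. The authors' deposited table for THZ1 in SMB56, also DMSO over treated, gives 0.26 for Max (adjusted p 0.0235) and 0.30 for Mga (adjusted p 6.20e-06), the direction of the TMM fit. In the authors' deposited table for SMB56-shSufu, which runs treated over DMSO, Mga had 0.40 (adjusted p 0.0335) and Max -0.32 (adjusted p 0.125).

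Genes known as MYC targets, a list of 42 genes of ribosome assembly, nucleotide and polyamine synthesis and growth, fell together with GDC-0449. Of 40 tested, 36 fell and 0 rose by edgeR, where 18.8% of all genes fell and 17.5% rose, with a median log2 fold change of -0.34 against -0.0088 over all genes. The largest falls were in Srm, the spermidine synthase (-0.71 ± 0.074, edgeR adjusted p 5.06e-09), and Slc3a2, the heavy chain of amino acid transporters (-0.69 ± 0.041, edgeR adjusted p 1.26e-14). The count of falls was 24 to 40 of 40 under the alternatives on this table, with 0 rises. It was 2 of 34 in the fit of all 10 libraries, whose estimated spread includes the SMB56-shSufu libraries.

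With THZ1 in SMB56, 8 of 34 MYC target genes tested rose and 25 fell by edgeR, where 44.3% of all genes rose and 55.2% fell, with a median of -0.45 against -0.31 over all genes. Under RLE scaling 11 rose and 18 fell, and under mitochondrial scaling 1 rose and 32 fell. Of all 9863 genes, 4576 rose and 4343 fell under RLE, and 1288 rose and 7289 fell under mitochondrial scaling. Nme1, a nucleoside diphosphate kinase, rose (1.84 ± 0.049, edgeR adjusted p 5.83e-18), as did the nucleolar gene Gnl3 (1.03 ± 0.046, edgeR adjusted p 1.68e-14), which turns under mitochondrial scaling. The nucleolar gene Nop16 fell (-1.82 ± 0.088, edgeR adjusted p 6.09e-14), and so did Umps of pyrimidine synthesis (-1.60 ± 0.075, edgeR adjusted p 3.76e-14). In SMB56-shSufu with THZ1, 6 of 40 rose and 15 fell by edgeR, where 29.5% of all genes rose and 32.3% fell, with a median of -0.17 against -0.043 over all genes. Under mitochondrial scaling 0 rose and 38 fell, and on FPKM 0 and 31. Of all 11886 genes 183 rose and 9139 fell under mitochondrial scaling, and of 12057 on FPKM 1039 rose and 6624 fell. In SMB56-shSufu under TMM, Nme1 (1.57 ± 0.16, edgeR adjusted p 4.29e-06, opposite on FPKM) rose. Nop16 (-1.66 ± 0.17, edgeR adjusted p 4.86e-06) and Umps (-1.40 ± 0.16, edgeR adjusted p 9.85e-06) fell. The rises were 11 without SMB56-shSufu DMSO replicate 1 and 3 without SMB56-shSufu THZ1 replicate 1.

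Under DMSO, 20 of 40 MYC target genes were higher in SMB56-shSufu than in SMB56 and 3 lower by edgeR, where 20.7% of all genes were higher and 20% lower, with a median of 0.45 against 0.013 over all genes. This count was 6 higher and 1 lower without SMB56 DMSO replicate 1, and 4 and 2 without SMB56 DMSO replicate 2. Leaving out SMB56-shSufu DMSO replicate 1 gave 26 and 10, and leaving out its replicate 2 gave 33 and 5. Under mitochondrial scaling it was 0 higher and 25 lower, so the direction of this group rests on the scaling. Of all 10675 genes, 49 were higher and 9340 lower under that scaling. A fit without a library of 1 line takes its estimated spread from the other line alone.

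**Figure D5:**
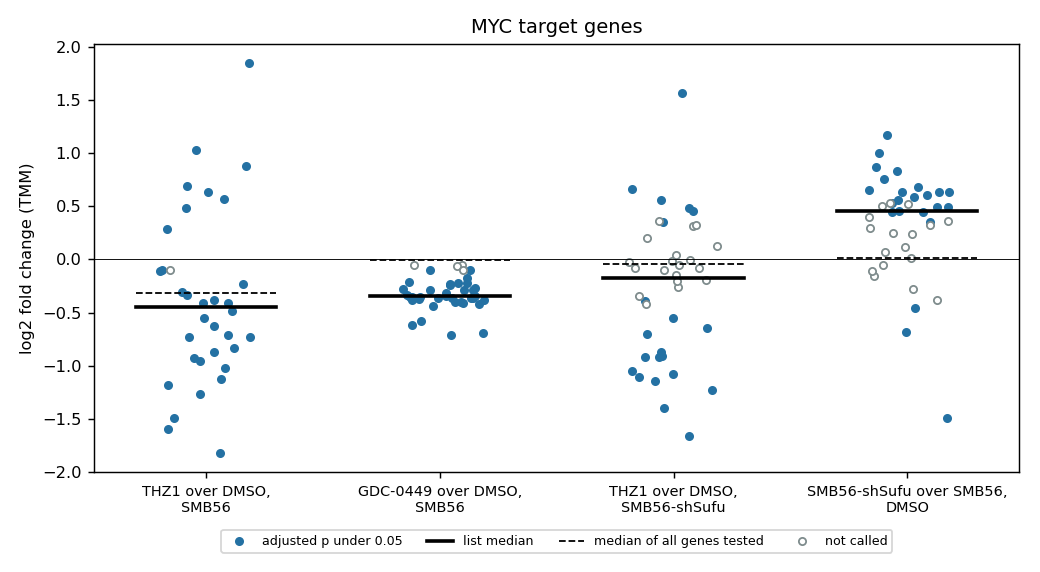
Log2 fold change (TMM) of each MYC target gene tested, a column per comparison, with the treated group or SMB56-shSufu over its control. The bar is the list median and the dashed line the median of all genes tested; with GDC-0449 the list median is -0.34 and 36 of 40 genes are lower, and between the lines under DMSO the list median is 0.45.

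Network genes outside the 10 members were led by Mxd1, the founding MXD repressor. It rose with THZ1 in SMB56 (2.199 ± 0.066, edgeR adjusted p 3.26e-17), with GDC-0449 (0.31 ± 0.079, edgeR adjusted p 0.00262) and with THZ1 in SMB56-shSufu (1.76 ± 0.16, edgeR adjusted p 2.21e-06), log2 fold changes with the same sign under every scaling run. Tfap4, an E-box factor known as a MYC target, fell in the same 3 comparisons (-0.70 ± 0.082, edgeR adjusted p 8.47e-08; -0.59 ± 0.074, edgeR adjusted p 2.32e-07; -1.03 ± 0.16, edgeR adjusted p 0.000119). Mlxip, which encodes the MLX partner MondoA, rose with THZ1 in SMB56 (1.19 ± 0.047, edgeR adjusted p 2.61e-15, opposite under mitochondrial scaling) and in SMB56-shSufu (1.33 ± 0.16, edgeR adjusted p 1.30e-05). Usf1, another E-box factor, was called lower with THZ1 in SMB56 under TMM (-0.13 ± 0.057, edgeR adjusted p 0.0304) and had the opposite sign under RLE scaling and in DESeq2. In counts, 2 rose and 2 fell of 4 tested with THZ1 in SMB56, 1 and 1 of 3 with GDC-0449, and 3 and 1 of 6 with THZ1 in SMB56-shSufu, and under mitochondrial scaling 1 and 2, 0 and 2, and 0 and 4. Under TMM, rises made up 44.3%, 17.5% and 29.5% of all genes in these comparisons and falls 55.2%, 18.8% and 32.3%. Under mitochondrial scaling 1288 rose and 7289 fell of 9863 genes, 485 and 3736 of 10008, and 183 and 9139 of 11886, in that order.

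Of the MYC cofactors, 2 of 12 rose and 8 fell with THZ1 in SMB56, 0 of 13 rose and 8 fell with GDC-0449, and 3 of 14 rose and 4 fell with THZ1 in SMB56-shSufu by edgeR, beside falls of 55.2%, 18.8% and 32.3% of all genes in these comparisons. The falls with GDC-0449 ranged over 0 to 11 under the alternatives, and under mitochondrial scaling 0 rose and 12 fell with THZ1 in each line. Under that scaling 7289 of 9863 genes fell with THZ1 in SMB56 and 9139 of 11886 in SMB56-shSufu. Medians of the cofactors under TMM were -0.50, -0.13 and -0.071, against -0.31, -0.0088 and -0.043 over all genes. Kat5, the TIP60 acetyltransferase, was lower with THZ1 in SMB56 (-1.69 ± 0.095, edgeR adjusted p 6.84e-13) and in SMB56-shSufu (-1.98 ± 0.17, edgeR adjusted p 1.29e-06). Smarcb1, a SWI/SNF remodeller subunit, fell in the same comparisons (-1.88 ± 0.081, edgeR adjusted p 8.98e-15; -1.72 ± 0.15, edgeR adjusted p 1.33e-06). Wdr5, a scaffold of histone methyltransferases, was called higher in both under TMM (0.64 ± 0.047, edgeR adjusted p 4.29e-11; 0.68 ± 0.15, edgeR adjusted p 0.00149), with the opposite sign under mitochondrial scaling in both, under ribosomal protein gene scaling in SMB56 and on FPKM in SMB56-shSufu. Zbtb17, the MYC partner MIZ1, was called higher with THZ1 in SMB56 (0.59 ± 0.077, edgeR adjusted p 4.18e-07) and Trrap, a scaffold of acetyltransferase complexes, in SMB56-shSufu (0.59 ± 0.16, edgeR adjusted p 0.00659), each opposite under mitochondrial scaling and on FPKM, and Zbtb17 also under ribosomal protein gene scaling. With GDC-0449 the largest falls were in the ATPase gene Ruvbl2 (-0.31 ± 0.041, edgeR adjusted p 3.14e-07) and the acetyltransferase gene Kat2a (-0.26 ± 0.039, edgeR adjusted p 3.14e-06).

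Genes of MYC protein turnover included Pim1, a kinase known to stabilise MYC, which rose with THZ1 in SMB56 (1.93 ± 0.066, edgeR adjusted p 2.24e-16) and in SMB56-shSufu (2.22 ± 0.15, edgeR adjusted p 2.77e-07). Pim1 fell with GDC-0449 (-0.21 ± 0.083, edgeR adjusted p 0.0464). The deubiquitinase gene Usp28 was lower with THZ1 in SMB56 (-0.52 ± 0.074, edgeR adjusted p 1.17e-06) and in SMB56-shSufu (-0.51 ± 0.15, edgeR adjusted p 0.00918). Ppp2r5a, a phosphatase subunit, was called higher with THZ1 in SMB56 (1.13 ± 0.050, edgeR adjusted p 1.13e-14) and the deubiquitinase gene Usp37 in SMB56-shSufu (1.08 ± 0.15, edgeR adjusted p 5.14e-05), both opposite under mitochondrial scaling. With GDC-0449 Usp37 fell (-0.21 ± 0.042, edgeR adjusted p 0.000190) and the kinase gene Gsk3b rose (0.12 ± 0.036, edgeR adjusted p 0.00915). In counts, 6 rose and 3 fell of 9 with THZ1 in SMB56, 1 and 4 of 11 with GDC-0449, and 5 and 2 of 11 with THZ1 in SMB56-shSufu, with medians of 0.37, -0.082 and 0.16, beside -0.31, -0.0088 and -0.043 over all genes. Rises made up 44.3%, 17.5% and 29.5% of all genes in these comparisons. Of all 9863 genes with THZ1 in SMB56, 1288 rose and 7289 fell under mitochondrial scaling, and 2679 and 5967 under ribosomal protein gene scaling. In SMB56-shSufu 183 of 11886 rose and 9139 fell under mitochondrial scaling. With THZ1 the split of this list turned to 1 rise and 7 falls in SMB56 and 1 and 8 in SMB56-shSufu under mitochondrial scaling. Under ribosomal protein gene scaling it turned to 2 and 5 in SMB56. With GDC-0449 it was 0 and 0 on FPKM.

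The SIN3 and HDAC corepressor genes had 7 rises and 3 falls of 10 tested with THZ1 in SMB56, 2 and 5 of 15 with GDC-0449, and 7 and 3 of 15 with THZ1 in SMB56-shSufu by edgeR, beside rises of 44.3%, 17.5% and 29.5% of all genes. Their medians were 0.66, -0.072 and 0.15, against -0.31, -0.0088 and -0.043 over all genes. Of all 9863 genes with THZ1 in SMB56, 1288 rose and 7289 fell under mitochondrial scaling, and 2679 and 5967 under ribosomal protein gene scaling. In SMB56-shSufu 183 of 11886 rose and 9139 fell under mitochondrial scaling. With THZ1 the split of this list turned to 0 rises and 8 falls in SMB56 (median -0.61) and 0 and 9 in SMB56-shSufu under mitochondrial scaling. Under ribosomal protein gene scaling it turned to 3 and 4 in SMB56. With GDC-0449 it was 0 and 0 on FPKM. Ing1, a histone mark reader of the complex, was called higher with THZ1 in SMB56 (1.05 ± 0.054, edgeR adjusted p 1.38e-13, opposite under mitochondrial scaling) and in SMB56-shSufu (1.68 ± 0.15, edgeR adjusted p 1.58e-06). Arid4b in SMB56 (1.15 ± 0.045, edgeR adjusted p 1.78e-15) and Ing2 in SMB56-shSufu (1.27 ± 0.18, edgeR adjusted p 5.45e-05) were called higher with THZ1, both opposite under mitochondrial scaling. Brms1 fell in both lines (-0.96 ± 0.082, edgeR adjusted p 6.51e-10; -0.78 ± 0.15, edgeR adjusted p 0.000648). The scaffold gene Sin3a was lower with THZ1 in SMB56 (-0.85 ± 0.053, edgeR adjusted p 4.33e-12) and with GDC-0449 (-0.15 ± 0.042, edgeR adjusted p 0.00676), and Sap30 fell with THZ1 in SMB56-shSufu (-0.83 ± 0.21, edgeR adjusted p 0.00454). Under GDC-0449, Arid4b (0.23 ± 0.041, edgeR adjusted p 5.59e-05) and Arid4a (0.21 ± 0.069, edgeR adjusted p 0.0166) rose and Rbbp7 fell (-0.21 ± 0.036, edgeR adjusted p 4.40e-05).

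In the PRC1.6 complex that holds MGA, Rybp, a RING1 partner, rose with THZ1 in SMB56 (2.23 ± 0.055, edgeR adjusted p 2.03e-18) and in SMB56-shSufu (1.76 ± 0.14, edgeR adjusted p 8.35e-07). The repressor gene E2f6 was called higher in the same comparisons under TMM (1.16 ± 0.049, edgeR adjusted p 6.75e-15; 1.12 ± 0.14, edgeR adjusted p 2.73e-05), opposite under mitochondrial scaling, and fell with GDC-0449 (-0.27 ± 0.051, edgeR adjusted p 0.000107). Pcgf6, the subunit that defines the complex, was lower with THZ1 in SMB56 (-0.74 ± 0.079, edgeR adjusted p 1.77e-08) and in SMB56-shSufu (-1.16 ± 0.16, edgeR adjusted p 4.91e-05), and so was the ubiquitin ligase gene Ring1 (-0.87 ± 0.092, edgeR adjusted p 1.81e-08; -0.74 ± 0.19, edgeR adjusted p 0.00376). The E2F partner gene Tfdp1 fell with GDC-0449 (-0.29 ± 0.036, edgeR adjusted p 1.50e-07). In counts, 5 rose and 4 fell of 9 with THZ1 in SMB56, 0 and 5 of 11 with GDC-0449, and 5 and 3 of 12 with THZ1 in SMB56-shSufu, with medians of 0.64, -0.040 and 0.041, beside -0.31, -0.0088 and -0.043 over all genes. Rises made up 44.3%, 17.5% and 29.5% of all genes and falls 55.2%, 18.8% and 32.3%. Of all 9863 genes with THZ1 in SMB56, 1288 rose and 7289 fell under mitochondrial scaling, and 2679 and 5967 under ribosomal protein gene scaling. In SMB56-shSufu 183 of 11886 rose and 9139 fell under mitochondrial scaling. With THZ1 the split of this list turned to 1 rise and 7 falls in SMB56 (median -0.62) and 0 and 8 in SMB56-shSufu under mitochondrial scaling. Under ribosomal protein gene scaling it turned to 2 and 4 in SMB56 (median -0.039). With GDC-0449 it was 0 and 1 on FPKM.

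The genes most like each member were taken by the Euclidean distance of centred log2 CPM over the 10 libraries, among 6844 genes, as a description without a test. The 10 libraries share their lines and treatments, so such distances carry the same group differences. Nearest to Mycn were Mpp6 at 0.36, Lonp1 at 0.48 and Mfsd5 at 0.50, and nearest to Myc were mt-Co1 at 0.65, Gstm1 at 0.67 and Apoe at 0.71. Nearest to Mycl were Epha7 at 0.27, Man1c1 at 0.44 and Brsk2 at 0.44. Nearest to Mxd3 were Trappc12 at 0.22, Rnf41 at 0.28 and Dnpep at 0.32. Mlx had Cab39l at 0.35, Zfp131 at 0.35 and Ccdc59 at 0.35, and Max had Zzz3 at 0.12, Eif4e2 at 0.15 and Rad21 at 0.17. Mnt had Cdc42bpb at 0.10, Foxj2 at 0.21 and Dgkd at 0.25, and Mga had Cbx5 at 0.19, Gigyf2 at 0.21 and Llgl1 at 0.23. Myc was thus the member with the most distant nearest gene, and Mnt the one with the closest.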

How the data were processed

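Gene-level RNA-seq values were used as deposited. The authors deposited 3 tables with raw read counts and FPKM values per library, and beside them log2 fold changes with p-values, per the file headers. The SMB56-shSufu table as deposited also holds base means (a signal of size-factor scaled counts), standard errors and statistic scores. Per the submitters' processing notes, the tools were DESeq2 1.20.0, STAR 2.5.3a and Cufflinks 2.2.1, and the build hg19; the gene IDs are mouse, so no coordinates were taken from the tables. The counting tool and its use of strand are not given in the sources used here. SMB56 DMSO counts and FPKM were identical in both SMB56 tables (0 differed). A spreadsheet had turned 20, 21 and 19 gene names into dates (THZ1 in SMB56, GDC-0449, THZ1 in SMB56-shSufu), of which 14, 17 and 18 were recovered by gene ID.

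Each comparison was fitted on the whole table and its own groups with edgeR 4.0.16 in R 4.3.3 (quasi-likelihood F test, TMM, filterByExpr, Benjamini-Hochberg over all genes tested, called at an adjusted p under 0.05), with 2 residual degrees of freedom in fits of 4 libraries. The 6 comparisons included 3 across tables. The line difference and THZ1 against GDC-0449 used genes that both tables list (8204 and 7417), and the lines under DMSO used 10679 genes in the SMB56-shSufu table and at least 1 SMB56 table. Standard errors were computed from the F statistic. Alternatives were other scalings (RLE, library size, mitochondrial genes, ribosomal protein genes), no filter, DESeq2 1.42.0, a replicate block, 1 fit of all 10 libraries, limma 3.58.1 on log2(FPKM + 1), and each library left out. The fits were tested on simulated data with 200 changed genes. Members and gene lists were chosen with earlier results of these data known. The members were always named, and from each list the 2 called genes of largest rise and fall, and per member the 3 nearest genes. Some genes that this rule names are not reported here.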

Additional observations from a re-analysis of the deposited data

Results flagged for a closer look

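The THZ1 effect on 2 members differed between SMB56-shSufu and SMB56 in a test of the difference itself, by edgeR's quasi-likelihood test over 8204 genes. For Mlx the log2 fold change in SMB56-shSufu minus that in SMB56 was -0.62 (edgeR adjusted p 0.0270). For Mga the same difference was 0.60 (edgeR adjusted p 0.0292). These were 2 of 8 members, where 18.3% of the 8204 genes were called. Those 8204 genes are limited to the SMB56 THZ1 table, which was selected on the outcome. Leaving out 1 library at a time called 0 to 5 members, and 0 without SMB56-shSufu THZ1 replicate 2, either SMB56 DMSO library or SMB56 THZ1 replicate 1. The call was also lost without SMB56-shSufu THZ1 replicate 1 for Mlx and without SMB56 THZ1 replicate 2 for Mga. Under mitochondrial scaling it was lost for both, and under RLE scaling for Mga. Under ribosomal protein gene scaling the Mlx difference was 0.032. The line and the table that holds it cannot be told apart here. Groups of 2 libraries are too small for a check of single stray libraries.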

How the results depend on the processing

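Across member fold changes recomputed under alternatives, 604 kept direction and side of the threshold, 36 gained a call, 48 lost one and 40 turned sign. The cause was not tested unless stated. With 2 libraries per group, the number of libraries limits small changes. Leaving out a library leaves its group with 1, which is assumed to vary like the others.

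With THZ1 in SMB56, log2 fold changes turned to 0.14 (RLE), 0.14 (DESeq2) and 0.092 (all 10 libraries) for Max, to 0.11, 0.098 and 0.053 for Mga, and under mitochondrial scaling to -0.031 for Myc, -0.52 for Mycn and -0.47 for Mnt. Genes called were 5883 with all 10 libraries, against 9813, in a fit that changed both the genes tested (7244, against 9863) and the libraries behind the estimated spread. With GDC-0449, mitochondrial scaling gave -0.020 for Mxi1, -0.020 for Mxd3 and -0.11 for Mga, and Mga had -0.21 on FPKM, -0.020 to 0.031 when 1 library was left out (-0.0026 without GDC-0449 replicate 2). Genes called with GDC-0449 were 1658 by DESeq2, 145 with all 10 libraries and 634 on FPKM, against 3633, with 3, 1 and 2 members called, against 5. With THZ1 in SMB56-shSufu, Mxi1 had -0.29 (library size), -1.20 (mitochondrial), -0.036 (ribosomal protein genes) and -0.50 (FPKM), Mxd4 -0.16, -1.06 (mitochondrial) and -0.26 (FPKM), Mga -0.78 (mitochondrial) and -0.24 (FPKM), and Mycn -0.31 (mitochondrial).

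In the difference between lines, members called were 1 under RLE, 0 under mitochondrial and 6 under ribosomal protein gene scaling, against 2, and genes called 112 and 4483 under mitochondrial and ribosomal protein gene scaling, against 1504. Ribosomal protein gene scaling turned Mycl to 0.56, Max to 0.48 and Mlx to 0.032, and Mycn ranged over -0.0081 to 0.33 when 1 library was left out. Between lines under DMSO, mitochondrial scaling called 9389 genes, against 4342, and 9 members, against 5, with Max at -0.80 and Mlx at -0.61, and Mga ranged over -0.19 to 0.094 when 1 library was left out. For THZ1 against GDC-0449, Max had -0.49 (library size), -1.27 (mitochondrial) and -0.82 (ribosomal protein genes), Mga -0.58, -1.36 and -0.91, and Myc -0.16 and Mnt -0.26 (mitochondrial).

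Leaving out 1 library at a time gave 9716 to 9838 genes and 7 to 8 members called with THZ1 in SMB56, 2771 to 3036 and 3 to 5 with GDC-0449, 5477 to 7813 and 6 to 8 with THZ1 in SMB56-shSufu, 250 to 2859 and 0 to 5 for the difference, 1498 to 8129 and 3 to 9 between lines, and 6492 to 6671 and 6 to 7 for THZ1 against GDC-0449.

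Same-numbered replicates deviated together with correlations of 0.015 and 0.092 (THZ1 and GDC-0449 in SMB56) and 0.12 and 0.026 in the other pairs of groups. Correlations this low cannot settle whether same-numbered libraries were handled together, and the main fits used no pairing. With the replicate number as a block, 9820, 3965, 7917, 1779, 4787 and 6708 genes were called in the 6 comparisons in the order above, and of the member calls 1 changed, Mnt in the difference (0.44, edgeR adjusted p 0.0481).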
